A study of Mus musculus with 6 samples.

Results

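Kinesins are the motor proteins that walk along microtubules, and their family was read here in ribosome-associated RNA of mouse mPFC D2 neurons with and without knockout of *Gsk3b*. Members were taken by name, as every listed transcript whose gene symbol is Kif followed by a number and at most 1 letter, or Klc followed by a number. This gave 184 transcripts of 41 genes, out of 115220 transcripts of 47729 genes in the deposited table. All mice were adult C57BL/6 males of the D2Cre/LSL-Flag-Cas9/RiboTag line, so that a dopamine D2 receptor promoter drove Cre, and Cre switched on both Cas9 and the tagged Rpl22 ribosomal subunit in both groups. The Ctrl group (3 libraries) received AAV GFP in the medial prefrontal cortex (mPFC), and the Gsk3sKO in mPFC D2 group (3 libraries, written Gsk3sKO) received AAV Gsk3 sgRNA/GFP, which adds the guide RNA against *Gsk3b*. Ribosomes were pulled down after viral delivery and the bound RNA was sequenced from stranded total RNA libraries. The comparison addresses how knockout of *Gsk3b*, which encodes the serine/threonine kinase GSK3β, changes the ribosome-associated RNA of these neurons.

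A kinesin motor uses ATP to step along a microtubule, and most kinesins move towards the plus end, which in axons points away from the cell body. Neurons depend on them to carry synaptic vesicle precursors, mitochondria, RNA granules and receptors over long distances, while another set of kinesins serves the mitotic spindle of dividing cells and is little used in mature neurons. Kinesin-1 is built from heavy chains (Kif5 genes), which hold the motor, and light chains (Klc genes), which bind cargo; GSK3 is known to phosphorylate kinesin light chains.

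Values are FPKM, fragments scaled by the length of the transcript and by the mapped fragments of the library. This is a level per length, so genes can be set side by side. Gene totals are the sums of the FPKM of a gene's listed transcripts. The files give no counts, so the depth behind a value is unknown. *Gsk3b* itself had gene totals of 35.6, 53.8 and 56.5 FPKM in Ctrl replicates 1, 2 and 3 and of 36.9, 37.0 and 33.6 FPKM in Gsk3sKO replicates 1, 2 and 3. Ctrl replicate 1 lay within the Gsk3sKO range, and the log2 fold change of *Gsk3b* was -0.40 (SE 0.19, limma with Benjamini-Hochberg adjusted p = 0.773; exact permutation p = 0.3). Without Ctrl replicate 1 it was -0.61, and the difference then passed an unadjusted p of 0.05 in limma. A guide that makes small insertions or deletions need not remove the RNA, so the RNA level is a weak check of the labels. *Drd2*, the D2 receptor gene, ranged from 1.58 to 14.1 FPKM in Ctrl and from 5.96 to 8.32 FPKM in Gsk3sKO. The summed level of 4 neuron markers was 1725 to 1877 FPKM in Ctrl and 1725 to 1936 FPKM in Gsk3sKO, that of 5 astrocyte markers 50.003 to 59.8 and 42.4 to 61.4 FPKM, and that of 5 oligodendrocyte markers 108 to 169 and 123 to 155 FPKM. Lower in Gsk3sKO at an unadjusted limma p under 0.05 were *Mag* and *Mog*, 2 of the 5 oligodendrocyte markers, and *Tbr1*, 1 of 5 excitatory neuron markers, and 0 of the tested markers of astrocytes, microglia, endothelium, inhibitory neurons and neurons at large. Over all 12874 tested gene totals, 844 (6.56%) passed this threshold, 175 higher and 669 lower in Gsk3sKO. Between 40787 and 55841 transcripts were above 0 per library. *Gm23935* alone held 24.3%, 24.9% and 12.9% of all FPKM within Ctrl replicates 1, 2 and 3. Within Gsk3sKO replicates 1, 2 and 3 its share was 13.4%, 12.2% and 7.80%. These shares overlapped between the groups, with Ctrl replicates 1 and 2 highest and Gsk3sKO replicate 3 lowest. The part of these differences between libraries in the results below was not tested. Nothing in the labels says that replicates came from separate mice or pools. Their p-values therefore reflect library-to-library spread alone, and that spread may be technical. In such bulk RNA, fewer cells of a type and less RNA per cell cannot be told apart.

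The kinesins of these neurons were mostly transport motors, and their gene totals were close in both groups on the FPKM scale. The kinesin FPKM of a library summed to 1969, 1879 and 1907 in Ctrl and to 1957, 2120 and 1942 in Gsk3sKO. The groups overlapped, and the means of 1918 ± 46.1 and 2006 ± 98.6 FPKM (SD, n = 3 each) did not separate by an exact permutation test (2-sided p = 0.3, where 3 libraries against 3 cannot go below 0.1). All FPKM of a library summed to 608528, 550660 and 414548 in Ctrl and to 422109, 398586 and 385795 in Gsk3sKO. Kinesin levels as a share of all FPKM would differ more between the groups, and this was not tested. Just 7 genes with a mean above 100 FPKM held 86.0% of the kinesin sum, and the 12 highest genes held 97.2%. Kinesin-1 heavy chains made up 35.2% of it, kinesin-1 light chains 25.6%, kinesin-3 17.7%, kinesin-2 11.4%, kinesin-4 8.32% and kinesin-13 1.41%. The name rule leaves out the kinesin genes *Kifc2* and *Kifc3*, with means of 83.7 and 8.03 FPKM over the 6 libraries, so these shares do not cover them. Of the 41 genes, 21 passed the filter of a mean of at least 1 FPKM over the 6 libraries and were tested, and of the 184 transcripts 50 passed. Another 80 transcripts were above 0 in some library but under the filter, and 54 were listed at 0 in every library.

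**Figure D1:**
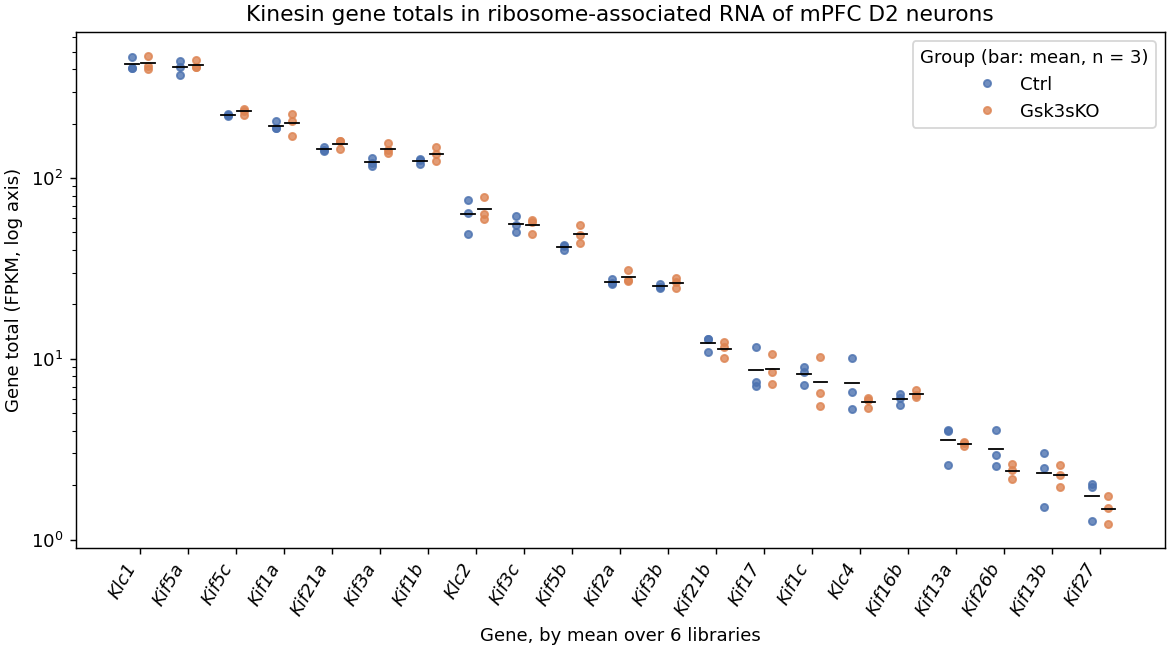
Gene totals (FPKM, log axis) of the 21 tested kinesin genes in each of the 3 Ctrl and 3 Gsk3sKO libraries, ordered by mean level; points are libraries and bars are group means. Levels run from *Klc1* at a mean of 430.1 FPKM down to *Kif27* at a mean of 1.62 FPKM, and the groups do not overlap in *Kif3a* and *Kif5b* only.

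No kinesin gene total and no kinesin transcript passed the test between the groups. In limma on log2(FPKM + 1), a scale that understates changes of low genes, 0 of 21 gene totals passed an unadjusted p of 0.05, and 0 passed an adjusted p of 0.05. Over all gene totals, 6.56% passed the unadjusted and 0.0466% the adjusted threshold. The smallest adjusted p among the kinesins was 0.780, for *Kif3a* (limma with Benjamini-Hochberg adjustment). A linear model without moderation of the variances, median ratio rescaling and the fit without a filter each put *Kif3a*, and no other kinesin gene total, past the unadjusted threshold but not past the adjusted one. The kinesin log2 fold changes ran from -0.29 to 0.25 with a median of 0.03, against a median of -0.06 over all 12874 tested gene totals, and 13 of the 21 (61.9%) were above 0, against 41.1% of all. Rescaling each library by its median ratio moved the median of all gene totals to -0.01 and that of the kinesins to 0.09, and it changed the split of called genes in the whole table from 175 higher and 669 lower to 276 higher and 528 lower. The 95% limma intervals of all 21 kinesin genes lay within a 2-fold change in either direction, and those of 15 within 1.5-fold. Groups did not overlap in 2 of the 21 gene totals, *Kif3a* and *Kif5b*, both higher in Gsk3sKO. Among all gene totals, 12% did not overlap, and 3.71% did so with Gsk3sKO higher.

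**Figure D2:**
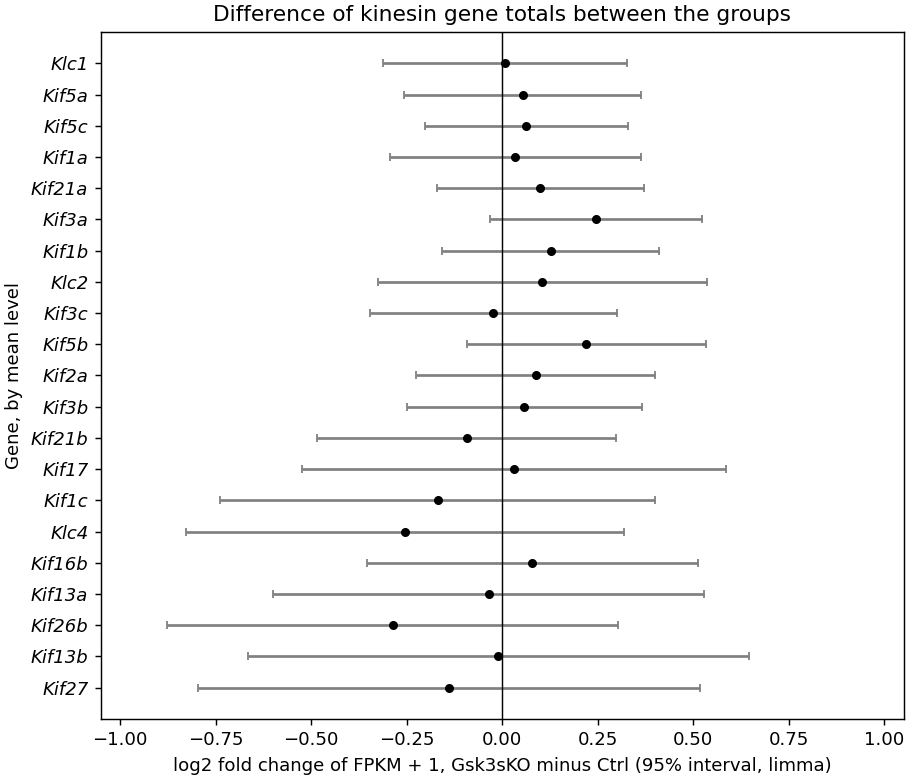
Log2 fold change of FPKM + 1 (Gsk3sKO minus Ctrl) of each tested kinesin gene total, with its 95% limma interval, ordered by mean level. Every interval crosses 0; that of *Kif3a* runs from -0.03 to 0.52 and is the one that reaches least below 0.

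Among the kinesin-1 heavy chains, the motors of fast anterograde transport, *Kif5a* led. Its gene total was 447, 412 and 371 FPKM in Ctrl and 410.3, 451 and 412 FPKM in Gsk3sKO, from 1 listed transcript. The groups overlapped, and its log2 fold change was 0.05 (limma 95% interval -0.26 to 0.36). *Kif5c*, the other heavy chain that is enriched in neurons, stood at 223, 222 and 227 FPKM in Ctrl and 225, 240.5 and 236 FPKM in Gsk3sKO, a log2 fold change of 0.06 (-0.20 to 0.33) with overlapping groups. *Kif5b*, the heavy chain made in most cell types, was the lowest of the 3, at 42.6, 42.2 and 40.1 FPKM in Ctrl and 43.5, 48.3 and 54.8 FPKM in Gsk3sKO. All Gsk3sKO libraries lay above all Ctrl libraries, Gsk3sKO replicate 1 by less than 1 FPKM. The log2 fold change of *Kif5b* was 0.22 (SE 0.14, limma 95% interval -0.09 to 0.53, adjusted p = 0.811), and 0.14 without Gsk3sKO replicate 3. Its share of the summed heavy chains was 5.98%, 6.25% and 6.29% in Ctrl and 6.41%, 6.53% and 7.79% in Gsk3sKO. The shares did not overlap (exact permutation p = 0.1, the smallest possible), with Gsk3sKO replicate 3 apart from the other 5. Without that library the difference of 0.736 percentage points became 0.297. This share contains *Kif5b*, so it restates the difference of the *Kif5b* total and is not a separate result. *Kif5a* held 60.6% ± 2.30 of the heavy chains in Ctrl and 60.02% ± 1.26 in Gsk3sKO, and *Kif5c* 33.2% ± 2.15 and 33.1% ± 0.569 (SD, n = 3 each).

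The light chains, which join the heavy chains to cargo, were led by *Klc1*, the kinesin gene with the highest mean total. *Klc1* stood at 471, 407 and 409 FPKM in Ctrl and 417, 476 and 401 FPKM in Gsk3sKO. Its groups overlapped, and its log2 fold change was 0.01 (limma 95% interval -0.31 to 0.33). *Klc2* stood at 49.3, 64.0 and 75.4 FPKM in Ctrl and 78.8, 63.6 and 59.1 FPKM in Gsk3sKO, overlapping over most of its range, with a log2 fold change of 0.10 (-0.33 to 0.53). *Klc4* stood at 10.1, 5.27 and 6.56 FPKM in Ctrl and 5.35, 6.04 and 5.92 FPKM in Gsk3sKO. Its log2 fold change of -0.25 (-0.83 to 0.32) rested largely on Ctrl replicate 1, which was above the other 5 libraries, and was -0.025 without it. *Klc3*, known mainly from testis, reached 0.818 FPKM at most and was not tested. The ratio of summed light chains to summed heavy chains was 0.744, 0.705 and 0.770 in Ctrl and 0.739, 0.737 and 0.664 in Gsk3sKO. These overlapped (exact permutation p = 0.5), with Gsk3sKO replicate 3 lowest.

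While gene totals varied little, the division of a total between its transcripts varied widely between libraries of 1 group. For 39 tested transcripts of the 11 kinesin genes with several tested transcripts, the median coefficient of variation within a group was 74.96%. For the totals of those 11 genes it was 8.76%. The same contrast held over the whole table, at 75.2% for 13475 transcripts and 20.3% for the 4651 totals of their genes. Tested transcripts with a group mean of 0 have no coefficient and were left out, among them *Kif1c* ENSMUST00000102554. Transcript levels are estimates that divide the reads of shared exons, and the part of that division in this spread was not tested. None of the 50 tested kinesin transcripts passed an unadjusted p of 0.05 in limma (smallest adjusted p = 0.842), against 5.56% of all tested transcripts, and at an adjusted p of 0.05 the share was 0% over the whole table. Groups did not overlap in 2 of the 50, against 11.2% of all tested transcripts. These were the main *Kif5b* transcript ENSMUST00000025083, higher in Gsk3sKO, and the *Kif1b* transcript ENSMUST00000030806, at 3.28, 3.32 and 3.27 FPKM in Ctrl and 2.02, 2.35 and 3.02 FPKM in Gsk3sKO (log2 fold change -0.32, limma adjusted p = 0.890).

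*Klc1* shows this spread between equal totals. Its main transcripts differ at the carboxyl-terminal end of the coding sequence, where the light chain variants are known to part. The following 3 stretches tell them apart and are printed 5′ to 3′ on the transcript strand, with the alternative segment in capitals and flanking coding bases in lower case. Segment B is the 27-base extension of an exon at chr12:111789460-111789486, segment C is the 30 coding bases of an end exon at chr12:111793649-111793678, and segment D is the 67-base exon at chr12:111806008-111806074 (GRCm38, plus strand; letters from the GENCODE M21 transcripts).
Klc1 segment B: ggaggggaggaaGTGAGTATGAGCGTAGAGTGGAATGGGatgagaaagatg
Klc1 segment C: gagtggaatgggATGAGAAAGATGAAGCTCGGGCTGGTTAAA
Klc1 segment D: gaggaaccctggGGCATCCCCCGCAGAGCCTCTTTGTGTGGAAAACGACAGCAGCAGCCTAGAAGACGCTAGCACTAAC

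Transcripts with segment B took 41.0%, 27.4% and 97.0% of the *Klc1* total in Ctrl and 21.8%, 99.3% and 61.3% in Gsk3sKO. The 2 transcripts behind this were ENSMUST00000118471, without segments B and C, at 276, 294 and 10.6 FPKM in Ctrl and 325, 2.06 and 155 FPKM in Gsk3sKO, and ENSMUST00000120544, with both, at 27.8, 14.6 and 298 FPKM in Ctrl and 9.40, 365 and 189 FPKM in Gsk3sKO. Ctrl replicate 3 and Gsk3sKO replicate 2 held far more of the latter of these than of the former, Ctrl replicates 1 and 2 and Gsk3sKO replicate 1 far more of the former, and Gsk3sKO replicate 3 much of both, so the exchange followed libraries and not groups. The log2 fold changes were -0.87 (SE 2.07) and 0.81 (SE 1.63), with limma adjusted p = 0.964 and adjusted p = 0.954. Segment D, in contrast, was carried by 35.3%, 24.0% and 24.2% of the total in Ctrl and by 19.9%, 22.5% and 14.1% in Gsk3sKO. All Gsk3sKO shares lay below all Ctrl shares, a mean of 18.8% ± 4.31 against 27.8% ± 6.46 (SD, n = 3 each), the only non-overlapping pair among the 12 alternative segments examined in 4 kinesin genes. By FPKM, another measure, 11.2% of all tested transcripts did not overlap between the groups, so 1 of 12 does not set *Klc1* apart. Without Ctrl replicate 1, the difference of -9.01 percentage points became -5.28. The main carrier of segment D, ENSMUST00000084941, stood at 126, 60.6 and 48.9 FPKM in Ctrl and 40.7, 50.3 and 32.8 FPKM in Gsk3sKO. These overlapped, and its log2 fold change of -0.81 (SE 0.37) did not pass the unadjusted threshold in limma (adjusted p = 0.842). Leaving out Ctrl replicate 1 gave -0.41, and leaving out Ctrl replicate 3 gave -1.09, where it passed the unadjusted threshold but not the adjusted one.

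Kinesin-2 motors carry cargo into dendrites and axons and along cilia, as *Kif3a* paired with *Kif3b* or *Kif3c*, or as *Kif17*, which carries NMDA receptor subunits. *Kif3a* had the highest log2 fold change among the kinesin gene totals. It stood at 121, 117 and 129.7 FPKM in Ctrl and 138, 143 and 156 FPKM in Gsk3sKO. Every Gsk3sKO library lay above every Ctrl library, with means of 122.6 ± 6.44 and 145.6 ± 9.22 FPKM (SD, n = 3 each), the smallest possible exact permutation p of 0.1, and a log2 fold change of 0.25 (SE 0.12, limma 95% interval -0.03 to 0.52, adjusted p = 0.780). Its partners moved less. *Kif3b* stood at 24.7, 25.1 and 26.1 FPKM in Ctrl and 27.9, 24.8 and 26.5 FPKM in Gsk3sKO (log2 fold change 0.06), and *Kif3c* at 61.9, 50.5 and 55.3 FPKM in Ctrl and 57.3, 58.5 and 49.0 FPKM in Gsk3sKO (log2 fold change -0.02). Both overlapped between the groups, and so did *Kif17* at 7.06, 7.44 and 11.7 FPKM in Ctrl and 8.51, 10.6 and 7.30 FPKM in Gsk3sKO. The ratio of *Kif3a* to *Kif3b* plus *Kif3c* was 1.40, 1.55 and 1.59 in Ctrl and 1.62, 1.71 and 2.07 in Gsk3sKO, without overlap (exact permutation p = 0.1). *Kif3a* therefore stood above the sum of its partners in all 6 libraries, and Gsk3sKO replicate 3 was highest. The kinesin-2 sum was 214.6, 200.2 and 223 FPKM in Ctrl and 232, 236 and 239 FPKM in Gsk3sKO, without overlap (exact permutation p = 0.1). This ratio and this sum both contain *Kif3a*, so they restate its difference and are not separate results. The group means of the sum differed by 23.2 FPKM, and those of *Kif3b* plus *Kif3c* by 0.147 FPKM.

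The main *Kif3a* transcripts differ in 3 short coding segments that follow each other between the same neighbours, and they are shown because the transcript differences of *Kif3a* run along them. Segment A is a 72-base exon at chr11:53588689-53588760, segment B a 9-base exon at chr11:53590717-53590725 and segment C a 21-base extension of the next exon at chr11:53593374-53593394 (GRCm38, plus strand; GENCODE M21 letters, 5′ to 3′). Capitals mark the segment. Each length is a multiple of 3 bases, so that leaving a segment out keeps the reading frame.
Kif3a segment A: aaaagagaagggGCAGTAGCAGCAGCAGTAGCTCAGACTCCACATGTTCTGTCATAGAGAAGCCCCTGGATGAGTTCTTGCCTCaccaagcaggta
Kif3a segment B: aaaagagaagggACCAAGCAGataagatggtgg
Kif3a segment C: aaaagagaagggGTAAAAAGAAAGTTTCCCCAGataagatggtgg

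ENSMUST00000173744, with segment B alone, stood at 59.9, 65.2 and 68.5 FPKM in Ctrl and 81.6, 22.1 and 7.53 FPKM in Gsk3sKO. ENSMUST00000057330, with segment C alone, stood at 39.5, 27.6 and 30.9 FPKM in Ctrl and 30.6, 74.1 and 94.1 FPKM in Gsk3sKO. ENSMUST00000118353, with all of A, B and C, stood at 8.42, 12.4 and 12.2 FPKM in Ctrl and 11.1, 28.8 and 29.6 FPKM in Gsk3sKO. In each of the 3, Gsk3sKO replicates 2 and 3 lay outside the Ctrl range, on the same side, while Gsk3sKO replicate 1 lay within it or, for ENSMUST00000173744, on the opposite side. The groups therefore overlapped, and the log2 fold changes of -1.37 (SE 0.77), 0.87 (SE 0.42) and 0.91 (SE 0.41) did not pass the unadjusted threshold in limma. Their limma adjusted p was 0.857, 0.842 and 0.842. Without Gsk3sKO replicate 1 all 3 passed the unadjusted threshold of 0.05, at log2 fold changes of -2.22, 1.34 and 1.35, and 0 passed the adjusted one. That fit called 1733 of all 21584 tested transcripts, against 1200 with every library. The 3 transcripts divide 1 gene total, so their calls are not separate results. ENSMUST00000120613, with B and C, varied from 8.35 to 23.7 FPKM with both extremes in Gsk3sKO (log2 fold change 0.20, limma adjusted p = 0.952).

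By segment, C was carried by 48.8%, 42.9% and 45.4% of the *Kif3a* total in Ctrl and by 40.2%, 78.0% and 94.5% in Gsk3sKO. B was carried by 65.7%, 75.02% and 74.5% in Ctrl and by 77.1%, 41.6% and 39.0% in Gsk3sKO. A was carried by 6.96%, 10.6% and 9.44% in Ctrl and by 8.004%, 20.2% and 19.0% in Gsk3sKO. All 3 overlapped between the groups through Gsk3sKO replicate 1. The difference of the mean share of C was 25.2 percentage points, with 13.4 to 40.6 when each library was left out in turn, 13.4 without Gsk3sKO replicate 3 and 40.6 without Gsk3sKO replicate 1. For B the difference was -19.2 percentage points, from -31.4 without Gsk3sKO replicate 1 to -12.4 without Gsk3sKO replicate 3. The *Kif3a* total itself did not follow this split, since Gsk3sKO replicate 1 lay above the Ctrl libraries as did replicates 2 and 3.

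**Figure D3:**
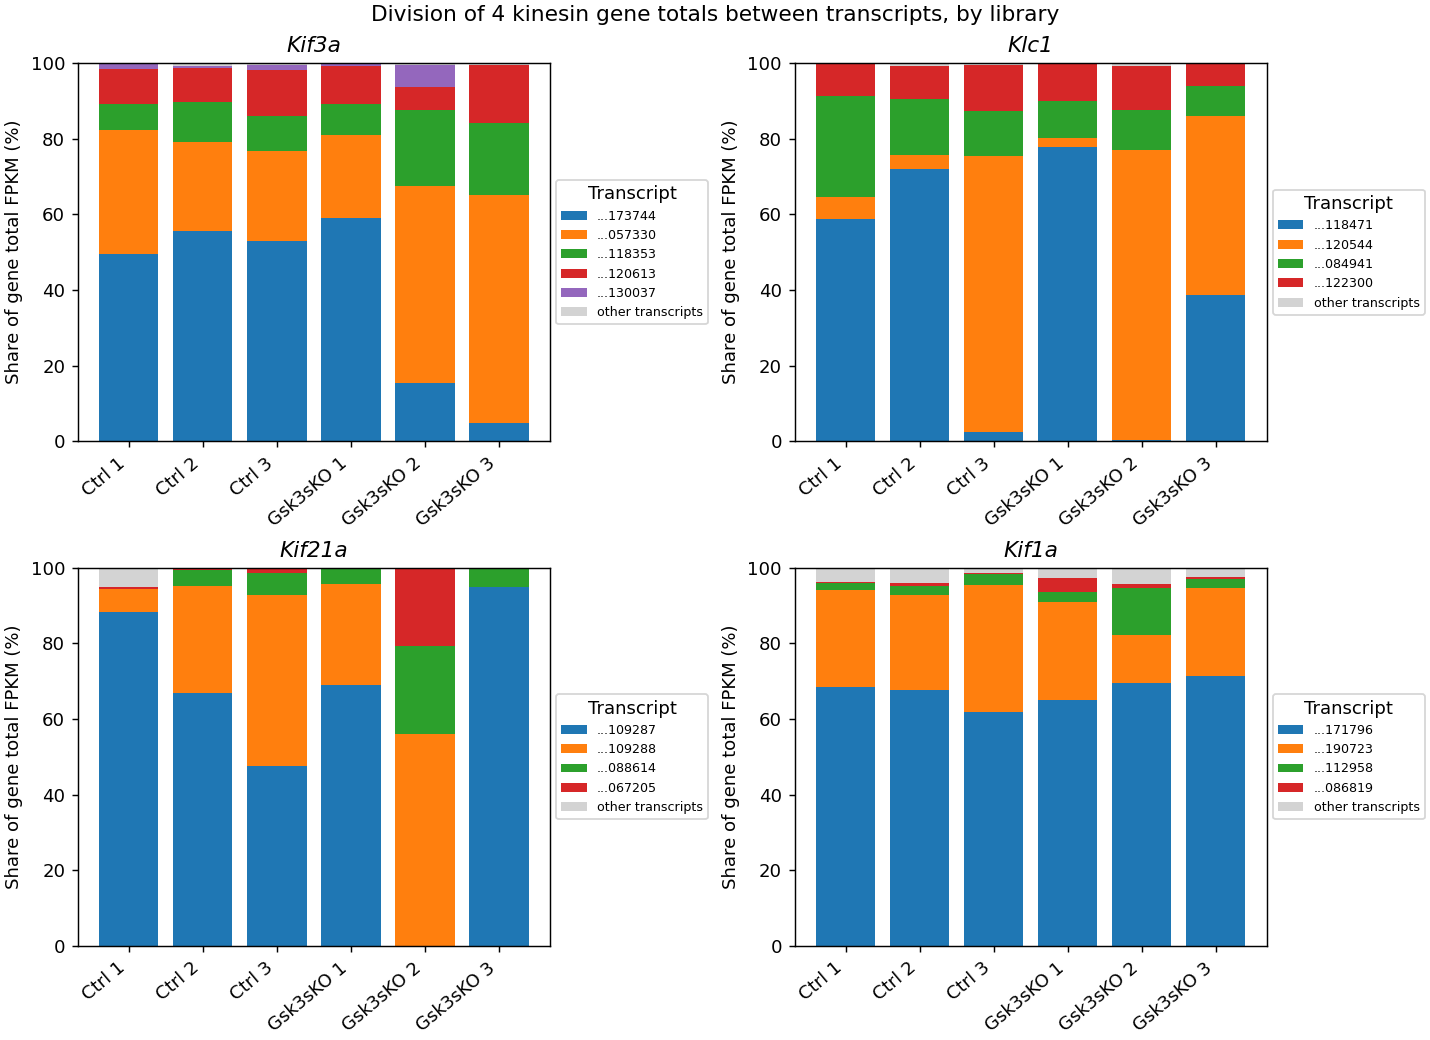
Share of the gene total (%) taken by each main transcript of *Kif3a*, *Klc1*, *Kif21a* and *Kif1a* in each of the 6 libraries, with colours for transcripts (last 6 digits of the identifier) and grey for all others. *Kif3a* ENSMUST00000173744 takes 15.5% and 4.83% in Gsk3sKO replicates 2 and 3 against 49.5% to 59.0% elsewhere, while the *Klc1* forms exchange within both groups.

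Kinesin-3 motors carry synaptic vesicle precursors and dense core vesicles. *Kif1a* stood at 190.2, 189 and 206 FPKM in Ctrl and 207, 226 and 170.0 FPKM in Gsk3sKO, with Gsk3sKO libraries both above and below the Ctrl range (log2 fold change 0.03, limma 95% interval -0.29 to 0.36). *Kif1b* stood at 119.6, 126 and 128 FPKM in Ctrl and 124, 148 and 137 FPKM in Gsk3sKO (0.13, -0.16 to 0.41). *Kif1c*, at 9.06, 7.17 and 8.43 FPKM in Ctrl and 10.3, 6.47 and 5.48 FPKM in Gsk3sKO, *Kif16b*, with a mean of 6.18 FPKM, *Kif13a* with 3.46 and *Kif13b* with 2.30 were lower. All 6 kinesin-3 genes overlapped between the groups, with log2 fold changes from -0.17 (*Kif1c*) to 0.13 (*Kif1b*). Leaving out 1 library moved both ends, *Kif1c* to between -0.40 (without Gsk3sKO replicate 1) and -0.0015 (without Gsk3sKO replicate 3), and *Kif1b* to between 0.067 (without Gsk3sKO replicate 2) and 0.19 (without Gsk3sKO replicate 1).

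*Kif1a* is shown by the 2 segments that part its main transcripts, a 27-base exon at chr1:93065552-93065578 (segment A, in ENSMUST00000190723) and a 24-base exon at chr1:93026832-93026855 (segment B, in ENSMUST00000171796), both on the minus strand of GRCm38 and printed as in the GENCODE M21 transcripts, with the exon in capitals.
Kif1a segment A: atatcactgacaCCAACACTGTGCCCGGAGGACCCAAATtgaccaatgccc
Kif1a segment B: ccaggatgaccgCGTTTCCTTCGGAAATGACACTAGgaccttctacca

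Their division was the steadiest of the 4 genes examined in this way. Segment B was carried by 68.6%, 67.7% and 61.9% of the *Kif1a* total in Ctrl and by 65.1%, 69.9% and 71.4% in Gsk3sKO, and segment A by 25.9%, 25.8% and 33.6% and by 29.5%, 13.5% and 23.9%. Both overlapped. ENSMUST00000171796 stood at 130.1, 128 and 128 FPKM in Ctrl and 135, 157 and 121 FPKM in Gsk3sKO (log2 fold change 0.09, SE 0.13, limma adjusted p = 0.927).

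*Kif1c*, a motor of many cell types, showed the largest change of mean share among kinesin transcripts of genes with a mean total of at least 1 FPKM. ENSMUST00000102554 was listed at 0 in all 3 Ctrl libraries and in Gsk3sKO replicate 1, and at 6.47 and 5.27 FPKM in Gsk3sKO replicates 2 and 3, where it took 100% and 96.2% of the gene total. In the other libraries the total was divided between ENSMUST00000094499, with 100%, 48.0% and 11.2% in Ctrl and 50.2% in Gsk3sKO replicate 1, ENSMUST00000072187, with 0%, 2.24% and 86.0% in Ctrl and 19.8% in Gsk3sKO replicate 1, and other listed forms. Both were at 0 in Gsk3sKO replicates 2 and 3. The log2 fold change of ENSMUST00000102554 was 1.85 (SE 0.83, limma adjusted p = 0.842), and the groups overlapped at 0. It was 3.93 with a pseudocount of 0.1, and 2.77 without Gsk3sKO replicate 1, where it passed the unadjusted threshold, as did 1 other *Kif1c* transcript, but not the adjusted one. Without Gsk3sKO replicate 2 it was 1.32. An exact 0 can be a failed estimate at these low levels. The other entries among the 5 largest changes of share were *Kif3a* ENSMUST00000173744, described above, and *Kif26b* ENSMUST00000161017, whose mean share of 63.5% in Ctrl and 95.1% in Gsk3sKO came from a single value of 0 in Ctrl replicate 3.

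The kinesin-4 family was represented by *Kif21a*, a motor that slows microtubule growth, at 141, 144 and 148 FPKM in Ctrl and 144, 161 and 159.7 FPKM in Gsk3sKO (log2 fold change 0.10, limma 95% interval -0.17 to 0.37, groups overlapping). Its relative *Kif21b* had a mean of 11.8 FPKM and a log2 fold change of -0.09 (-0.49 to 0.30). With protein coding transcripts only, it was -0.93 (SE 0.85) for *Kif21b*, since its transcript ENSMUST00000130864, annotated for nonsense-mediated decay, held a mean of 6.04 of those 11.8 FPKM. On *Kif21a* a 21-base exon at chr15:90964975-90964995 (segment B) and a 39-base exon at chr15:90949006-90949044 (segment C), both on the minus strand of GRCm38, separated the main transcripts, and they are printed from GENCODE M21 with the exon in capitals.
Kif21a segment B: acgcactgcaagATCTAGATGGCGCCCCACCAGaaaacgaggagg
Kif21a segment C: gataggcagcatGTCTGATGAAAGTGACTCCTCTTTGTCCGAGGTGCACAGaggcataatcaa

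Segment B was carried by 88.6%, 71.9% and 54.8% of the total in Ctrl and by 73.3%, 43.9% and 99.7% in Gsk3sKO, and segment C by 11.8%, 33.1% and 52.4% and by 31.0%, 100% and 5.16%. The extremes of both were in Gsk3sKO replicates 2 and 3, on opposite sides of the Ctrl range. The transcript ENSMUST00000109287, with B and without C, stood at 124, 96.3 and 70.6 FPKM in Ctrl and 99.6, 0 and 151 FPKM in Gsk3sKO. Its log2 fold change of -1.94 (SE 1.86, limma adjusted p = 0.895) was the lowest among the 50 tested kinesin transcripts and rested on the library where it was listed at 0. Without Gsk3sKO replicate 2 it was 0.37.

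**Figure D4:**
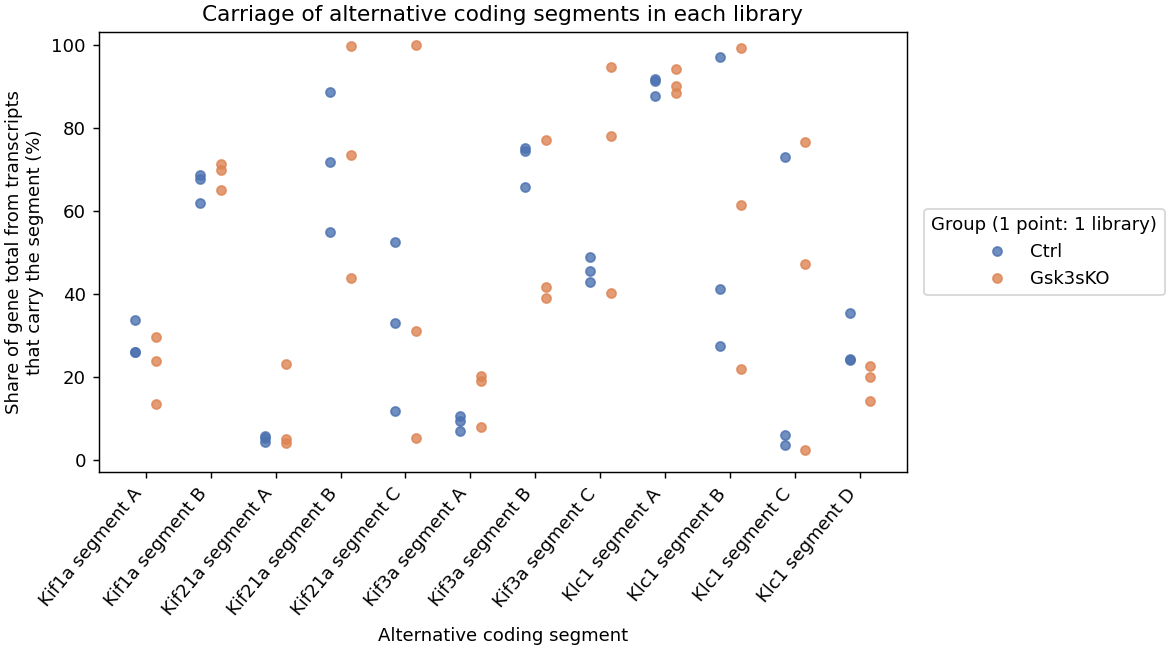
Share of the gene total (%) carried by transcripts with each of the 12 alternative coding segments of *Kif1a*, *Kif21a*, *Kif3a* and *Klc1*; each point is 1 library, Ctrl left and Gsk3sKO right. Groups separate only for *Klc1* segment D, at 24.0% to 35.3% in Ctrl and 14.1% to 22.5% in Gsk3sKO.

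Internal coding exons of at most 27 bases, as seen in *Kif3a*, *Kif1a* and *Kif21a*, were annotated in 7 of the 21 tested kinesin genes (33.3%) and in 836 of all 11342 tested genes with a coding sequence (7.37%). This is a description of the annotation, which was made without a test and does not say that the exons were read.

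Among the remaining tested genes, *Kif2a*, a kinesin-13 that takes microtubules apart at their ends, stood at 26.0, 26.4 and 27.6 FPKM in Ctrl and 26.9, 27.3 and 31.2 FPKM in Gsk3sKO (log2 fold change 0.09). *Kif26b* had 2.56, 2.94 and 4.05 FPKM in Ctrl and 2.63, 2.15 and 2.41 FPKM in Gsk3sKO, overlapping by its lowest Ctrl library, and its log2 fold change of -0.29 (limma 95% interval -0.88 to 0.30) was the lowest of the 21, but -0.14 without Ctrl replicate 3 and -0.09 with protein coding transcripts only. *Kif27* lay just inside the filter at 1.27, 2.04 and 1.94 FPKM in Ctrl and 1.501, 1.21 and 1.74 FPKM in Gsk3sKO, and *Kif6* just outside it at 0, 0.268 and 2.28 FPKM in Ctrl and 1.59, 0 and 0.415 FPKM in Gsk3sKO. In the order of mean levels, the library ranges of neighbours overlapped except after *Kif5a*, *Kif1a*, *Kif1b*, *Kif5b*, *Kif3b* and *Kif16b*, which each lay above the next gene in all 6 libraries.

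The 11 kinesins listed here for mitosis were at or near 0. None of them passed the filter, the highest single value was 1.41 FPKM (*Kif23* in Ctrl replicate 2), and *Kif2c* was listed at 0 in every library, as was *Kif12*, which has no mitotic role in that list. The summed level of the 11 was 0.736, 2.0999 and 0.764 FPKM in Ctrl and 0.676, 0.472 and 0.734 FPKM in Gsk3sKO. The groups did not overlap, with Gsk3sKO lower (exact permutation p = 0.1, the smallest possible), but only Ctrl replicate 2 stood apart, and the other 5 libraries lay between 0.472 and 0.764 FPKM. Of 5 markers of dividing cells, 0 passed the filter. The list of 11 does not hold *Kif2a*, at a mean of 27.5 FPKM, *Kif2b* or, outside the name rule, *Cenpe*. It may therefore not cover every kinesin that serves mitosis.

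The partners of kinesin transport were read from a list of 68 genes, of which 62 were tested. It held cargo adaptors, dynein and dynactin genes, and genes outside the name rule that are kinesins or are named after them. Of these, 2 passed an unadjusted p of 0.05 in limma, both lower in Gsk3sKO, which is 3.23% against the 6.56% of all gene totals, and 0 passed an adjusted p of 0.05. The median log2 fold change of the 62 was -0.03. *Dynll1*, a light chain of the minus-end motor dynein, stood at 85.3, 116 and 71.0 FPKM in Ctrl and 63.3, 49.4 and 48.0 FPKM in Gsk3sKO. The groups did not overlap, and its log2 fold change was -0.73 (SE 0.20, limma adjusted p = 0.607; exact permutation p = 0.1). Summing protein coding transcripts only, it was -0.45. *Lin7b*, which belongs to the adaptor complex that joins *Kif17* to NMDA receptor vesicles, stood at 36.7, 30.0 and 39.1 FPKM in Ctrl and 30.1, 27.3 and 21.9 FPKM in Gsk3sKO, where Ctrl replicate 2 and Gsk3sKO replicate 1 were level. Its log2 fold change was -0.41 (SE 0.17, limma adjusted p = 0.752), and the call was lost without any 1 of 4 libraries (Ctrl replicates 1 and 3, Gsk3sKO replicates 2 and 3). By list, 1 of 28 cargo adaptors, 1 of 10 dynein genes and 0 of 20 dynactin and dynein regulator genes passed the unadjusted threshold. So did 0 of the 4 kinesin or kinesin-named genes outside the name rule (*Kifc2*, *Kifc3*, *Kif1bp* and *Kifap3*).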

How the data were processed

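Ribosome-associated RNA of 6 libraries (3 Ctrl, 3 Gsk3sKO) was read from a single deposited table of transcripts. The authors deposited FPKM per transcript and library, and the submitters' processing notes name HISAT2 2.1.0, SAMtools 1.9, StringTie 1.3.4d and GRCm38. Whether reads were assigned by strand, and how deep the libraries were, is not given in the sources used here. The table also holds the authors' own fold changes, p-values and q-values, which were not used. Groups came from the sample titles.

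FPKM was summed by gene identifier. Features with a mean of at least 1 FPKM over the 6 libraries were tested on log2(FPKM + 1) with limma 3.58.1 (R 4.3.3; linear model, empirical Bayes with trend, 2-sided, no covariates), on the whole table of 21584 transcripts or 12874 gene totals, with Benjamini-Hochberg adjustment over all of them. A feature was called at an unadjusted p under 0.05. The scripts were tested on simulated data. Single values were compared by exact permutation tests (scipy 1.17.1). Of the 184 kinesin transcripts, 183 were found in GENCODE M21, a GRCm38 annotation.

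Members and lists were chosen with earlier results of these data known. Named were the called genes, the 12 highest kinesins, the kinesin-1 chains, the genes next to the filter, the called partners, *Gsk3b* and the 5 largest changes of share. Chosen after values were seen were the segments (9 to 75 coding bases that part transcripts with a mean of at least 10 FPKM), the ratios and subfamily sums, and the transcripts given with a fold change. Alternatives were a pseudocount of 0.1, median ratio rescaling, no moderation of variances, the replicate number as a block, other filters, protein coding transcripts only and leaving out each library.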

Additional observations from a re-analysis of the deposited data

How the results depend on the processing

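No kinesin transcript, kinesin gene total or partner passed an adjusted limma p of 0.05 under any alternative. Of kinesin transcripts, 0 were called at an unadjusted p of 0.05, 1 (*Kif3a* ENSMUST00000118353) with the replicate number as a block, and 0 to 6 when each library was left out, with 6 without Gsk3sKO replicate 1. Over all 21584 tested transcripts the calls were 1200, and 1103 with the block. They were 894 to 1733 when each library was left out, with 1733 without Gsk3sKO replicate 1. Of kinesin gene totals, 0 were called, and 1, *Kif3a*, with median ratio rescaling, without moderation of the variances and without a filter on low values, against 0 in every fit that left out a library. Of the partners, 2 were called, 4 without a filter, and 1 to 5 when each library was left out. Over all 12874 gene totals the calls were 844, 804 with median ratio rescaling and 695 without moderation. They were 574 to 1175 when each library was left out, and 1121 of 26696 without a filter. Same-numbered libraries of the 2 groups did not deviate together from their group means (correlations of -0.03, -0.01 and -0.08 over features). Differently numbered libraries had correlations of -0.03 to 0.05. These values show no pairing by number but cannot exclude a weak one, and the labels do not settle it. The block changed no call of a kinesin gene total. The log2 fold change of *Gsk3b* ran from -0.61 to -0.28 with a library left out and passed the unadjusted threshold in 1 of 13 alternatives, without Ctrl replicate 1. The median kinesin log2 fold change ran from -0.047 to 0.072 with a library left out, below 0 without Gsk3sKO replicate 2; that setting and those for segments and ratios were chosen after seeing the data. With median ratio rescaling, *Kif13a* (0.011), *Kif13b* (0.032) and *Kif3c* (0.032) turned to above 0. With a library left out, gene totals with small differences changed sign: *Kif13a* ran from -0.20 to 0.052, *Kif13b* from -0.20 to 0.14, *Kif17* from -0.10 to 0.24, *Kif1a* from -0.054 to 0.15, *Kif3c* from -0.093 to 0.055, *Kif5a* from -0.016 to 0.12, *Klc1* from -0.065 to 0.076 and *Klc2* from -0.058 to 0.24. So did transcripts of *Kif1a* (ENSMUST00000171796, -0.0061 to 0.18), *Kif21a* (ENSMUST00000109287, -3.25 to 0.37), *Kif3a* (ENSMUST00000120613, -0.16 to 0.54) and *Klc1* (ENSMUST00000118471, -2.41 to 1.20, and ENSMUST00000120544, -0.20 to 2.37). The cause was not tested. *Dynll1* kept its direction and its unadjusted call in 13 of 13 alternatives, from -0.89 to -0.45, and *Lin7b* lost its call in 7. With 3 libraries a group and no counts, the spread between libraries sets what can be seen, with a median standard error of 0.14 on the log2 scale for kinesin gene totals and 0.52 for kinesin transcripts.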
